A study of Homo sapiens with 9 samples.

Results

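GDA encodes guanine deaminase, the enzyme that turns the purine base guanine into xanthine. It was chosen by its FPKM in the 9 Caki-1 libraries described here, which differed between the groups, so its own values are a description and carry no test. All rows of the deposited table with the symbol GDA were taken, per row and summed per gene. They are 9 transcripts of 20909, and 1 gene of 6819. RefSeq holds 39 accessions for GDA, and only these 9 are in the deposited table, so each sum below covers listed forms only. Of the 9, 5 are curated RefSeq transcripts and 4 are predicted ones, and all 9 passed the filter on low counts.

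Guanine deaminase is a zinc-dependent amidohydrolase of the purine degradation pathway. Guanine that is not salvaged to guanylate loses its amino group, and xanthine oxidoreductase oxidises the resulting xanthine to urate, the end product in humans. The protein is also called cypin in neurons, where it binds the scaffold PSD-95 through a short carboxy-terminal ligand and is known for its part in dendrite branching.

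RNA sequencing of total RNA covered 9 libraries of Caki-1, an established human line of clear cell renal carcinoma. SH3 and SH1 are 3 libraries each of cells in which TAF1D was knocked down by short hairpin RNA, and the control is 3 libraries of cells labelled WT for genotype and NC in their names. TAF1D belongs to SL1, which recruits RNA polymerase I to ribosomal RNA genes, and the study asks what its loss does in this carcinoma. The labels do not say what SH1, SH3 and NC stand for, whether a line is a clone, or whether the 3 libraries of a group came from separate cultures. Any p-value below therefore measures the spread between these libraries, which may be technical.

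The table is a selection of transcripts. Between SH1 1 and control 1, every one of the 20909 has an estimated count at least 2-fold apart, 10960 with the higher value in SH1 1 and 9949 with the lower. The share of transcripts that far apart was 51.5% to 64.9% for each of the remaining 35 library pairs. Among the GDA rows, 7 were higher and 2 lower in SH1 1 than in control 1. A GDA form less than 2-fold apart between these libraries would be missing from the table, so levels, folds and ranks of the GDA sum are not those of the whole gene. A library held 1358215 to 1596467 estimated counts over the table, which is 4.20% to 5.18% of all TPM and not the depth of a library. TAF1D itself was not analysed here. Of 15 clear cell carcinoma and tubule markers, 5 were listed (KRT19, PAX8, VEGFA, CDH6 and MME), with a summed level of 75.8 to 89.3 FPKM in SH3, 32.6 to 33.7 FPKM in SH1 and 79.3 to 101 FPKM in control. KRT19, an epithelial keratin, makes up most of this sum, and the markers differed in direction. In SH1 against control the log2 fold change of its sum was -2.32 ± 0.20 for KRT19, which fell (adjusted p = 0.00134, edgeR quasi-likelihood test). It was -1.88 for CDH6, 1.08 for PAX8, 0.33 for VEGFA and 2.55 for MME, none of which passed by edgeR. In SH3 against control the values were -0.46 for KRT19, -2.94 for CDH6, 1.13 for PAX8, 0.87 for VEGFA and 1.03 for MME, and 0 passed by edgeR. DESeq2 called 2 of the 5 sums in SH1 against control (7.28% of its sums) and 2 in SH3 against control (4.08%). The part of these differences in the values of GDA was not tested. Of the markers of other cell types, 0 of 4 endothelial, 1 of 5 fibroblast and 1 of 4 blood markers were listed. The fibroblast marker, PDGFRB, stood at 0.16 to 0.34 FPKM in the 9 libraries. The blood marker, CD68, summed to 12.7 to 14.1 FPKM in SH3, 13.2 to 17.8 FPKM in SH1 and 7.84 to 12.5 FPKM in control.

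GDA lies on chromosome 9 at positions 72114608 to 72259869 (GRCh38.p14, RefSeq table). The 5 curated rows matched 3 transcript models of GENCODE 29 (GRCh38, plus strand) by accession, without regard to version because the table carries none. NM_004293 and NM_001351571 match the same model, with 14 exons, 5340 bases and 454 residues, whose first exon starts at 72149467 and holds the start codon. NM_001242505 begins in the same first exon but ends differently, with 16 exons in 2074 bases and 471 residues. NM_001242506 and NM_001242507 match a model that starts 34.9 kb further upstream, at 72114595. Its start codon lies in exon 3, and its protein has 380 residues, 74 fewer than that of NM_004293. The 4 predicted rows (XM_005252317, XM_011519217, XM_011519223 and XM_024447720) were not placed on this map.

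**Figure D1:**
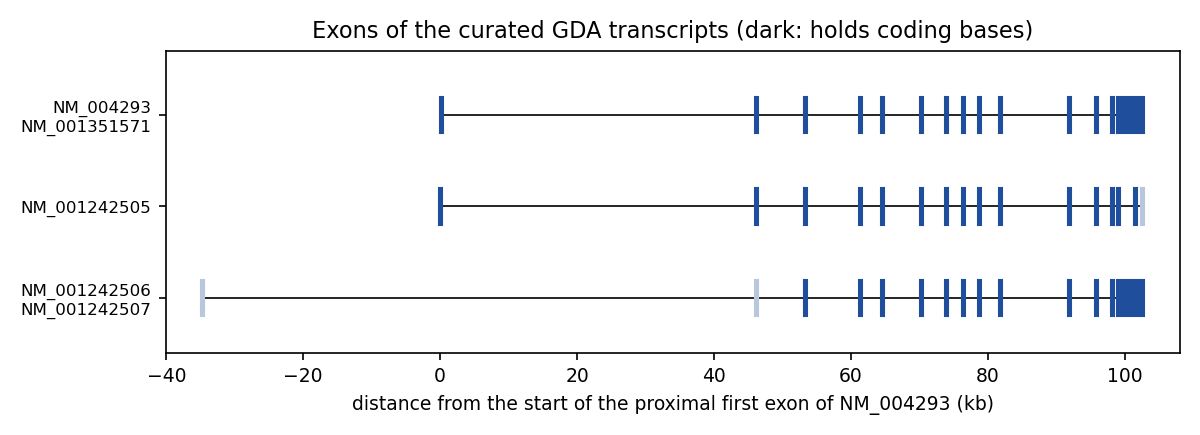
Exons of the 3 transcript models that match the 5 curated GDA rows, drawn to scale against the distance in kb from the start of the proximal first exon of NM_004293. Boxes are exons, dark where they hold coding bases and pale where they hold none, and the lowest model begins 34.9 kb upstream of the others.

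The sequences below show where the forms part, and they were read from the GRCh38 genome, 5′ to 3′ on the plus strand. The first pair are the coding bases at the translation start of the proximal form (chr9:72149560-72149682, first exon) and of the distal form (chr9:72202581-72202610, exon 3), with the start codon in capitals.
NM_004293: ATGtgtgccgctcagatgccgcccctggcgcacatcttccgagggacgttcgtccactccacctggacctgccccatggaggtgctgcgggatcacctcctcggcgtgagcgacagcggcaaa
NM_001242506: ATGcctgggctggttgatacacacatccat
The first exon of the proximal form thus holds 123 coding bases that the distal form does not translate. The second pair are the bases around the point where the 2 ends of the protein diverge. Lower case marks the 15 shared bases (chr9:72248324-72248338) and capitals mark the next bases of each transcript, which in NM_004293 are contiguous (chr9:72248339-72248353) and in NM_001242505 come from a later exon (chr9:72250750-72250764).
NM_004293: gttttccagctcagtGTAAGACCCTCGGGC
NM_001242505: gttttccagctcagtGAAAGAAACAATTCA
NM_004293 reaches its stop codon within these capitals, at 72248342, whereas NM_001242505 reads on to a stop codon that ends at 72250804 and carries 17 more residues.

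Summed over the 9 rows, GDA stood at 4.94, 5.97 and 4.83 FPKM in SH3, at 14.0, 11.7 and 10.9 FPKM in SH1 and at 0.55, 0.34 and 0.26 FPKM in control. The 3 groups did not overlap, with SH1 highest, SH3 between and control lowest. Mean levels were 5.25 ± 0.629 FPKM in SH3, 12.2 ± 1.64 FPKM in SH1 and 0.383 ± 0.150 FPKM in control (SD, n = 3 each). The same order held in the summed estimated counts, which were 461, 479 and 406 in SH3, 1247, 1082 and 937 in SH1, and 51, 31.5 and 26.6 in control. Counting error alone is 4.57% to 4.97% of these sums in SH3, 2.83% to 3.27% in SH1 and 14.0% to 19.4% in control.

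Each log2 fold change below is given with its standard error (SE) from the edgeR fit of all 9 libraries. The fold change of the sum was 4.73 ± 0.27 in SH1 against control, a fold of 26.5. In SH3 against control it was 3.52 ± 0.26, a fold of 11.5. In SH3 against SH1 it was -1.21 ± 0.24, so that the SH3 level was 0.432 of the SH1 level. Since every listed row differs between SH1 1 and control 1, the fit was repeated without both libraries. The log2 fold changes were then 4.94 in SH1 against control, 3.79 in SH3 against control and -1.15 in SH3 against SH1. The rows summed were still those listed, so this refit cannot show what the selection of rows did to the folds.

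In rank, the GDA sum was among the upper listed genes in both knockdown groups and in the lower part in control. Its mean level exceeded that of 84.8% of the 6819 genes in SH3, 95.9% in SH1 and 24.3% in control. The median gene had 1.27 FPKM in SH3, 1.31 FPKM in SH1 and 1.23 FPKM in control. By size of fold change among 6398 summed genes it ranked 143 from the highest in SH3 against control, 131 from the highest in SH1 against control and 703 from the lowest in SH3 against SH1. Summed genes with no overlap between groups made up 9.66% of the table for higher in SH3 than in control, 12.3% for higher in SH1 than in control and 12.0% for lower in SH3 than in SH1. In bulk RNA, a change in how many cells express a gene and a change in RNA per cell cannot be told apart.

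**Figure D2:**
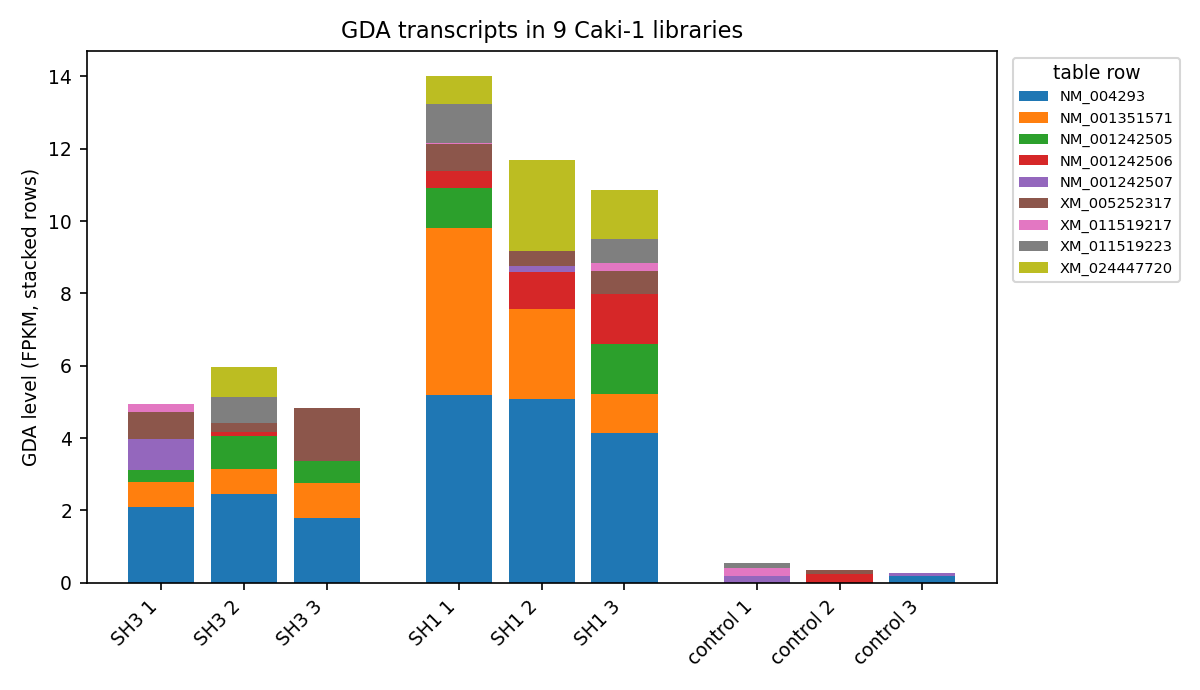
Level of GDA in each library as the sum of its 9 listed rows (FPKM, stacked by row), with SH3 at left, SH1 in the middle and control at right. The stacks reach 4.83 to 5.97 FPKM in SH3, 10.9 to 14.0 FPKM in SH1 and 0.26 to 0.55 FPKM in control, and NM_004293 is the tallest block in all 6 knockdown libraries.

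The curated transcript NM_004293, the 454-residue form, carried the largest share of the listed GDA sum in the knockdown libraries. It stood at 2.08, 2.46 and 1.80 FPKM in SH3, at 5.20, 5.07 and 4.14 FPKM in SH1, and at 0, 0 and 0.19 FPKM in control. All 6 knockdown libraries were above all 3 controls, and all SH1 libraries were above all SH3 libraries. Its log2 fold change was 6.19 ± 1.72 in SH1 against control, 5.07 ± 1.64 in SH3 against control and -1.12 ± 1.38 in SH3 against SH1. In control it had reads in 1 library, control 3, with an estimated count of 19.4. The size of these folds therefore rests on that library, and with the replicate number as a block they were 7.49 in SH1 and 6.37 in SH3 against control. NM_004293 accounted for 47.3% to 54.4% of the summed estimated count of GDA in SH3 and 43.1% to 48.9% in SH1. In control it was 73.0% of the 26.6 counts of control 3.

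NM_001351571, which matches the same model, was the next most abundant row. Its level was 0.69, 0.68 and 0.96 FPKM in SH3, 4.62, 2.50 and 1.09 FPKM in SH1, and 0 in all 3 controls. The groups did not overlap, although the SH1 libraries spread widely and SH1 3 lay close to SH3 3. Against a floor of 3 counts over the control group, it was at least 78.8-fold higher in SH3 and at least 262-fold higher in SH1. In SH3 against SH1 its log2 fold change was -1.74 ± 0.99. Taken with NM_004293, it made up 68.2% of the pooled GDA counts in SH3, 72.4% in SH1 and 17.8% in control. How the authors' counting divided reads between rows that share exons is not given in the sources used here, and the error of that split was not measured.

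The short-ended form NM_001242505 was seen in the knockdown groups and in no control. It stood at 0.35, 0.91 and 0.60 FPKM in SH3, at 1.10, 0 and 1.37 FPKM in SH1 and at 0 in all 3 controls. SH1 2 was at 0, so SH1 overlapped with control while SH3 did not. Against the same floor it was at least 22.7-fold higher in SH3 and at least 28.9-fold higher in SH1 than in control. The ratio of count to FPKM gave this row 0.363 of the length of NM_004293, beside 0.388 in the annotation. The 3 rows that begin at the proximal first exon made up 73.5% of the pooled GDA counts in SH3, 75.3% in SH1 and 17.8% in control.

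The rows that begin at the distal first exon were low in every group. NM_001242506, the 380-residue form, stood at 0, 0.12 and 0 FPKM in SH3, at 0.46, 1.02 and 1.38 FPKM in SH1 and at 0, 0.23 and 0 FPKM in control. SH1 was above both other groups without overlap, and SH3 overlapped with control. Its log2 fold change was 3.46 ± 2.56 in SH1 against control, -0.99 ± 2.36 in SH3 against control and -4.45 ± 2.68 in SH3 against SH1. NM_001242507 stood at 0.85, 0 and 0 FPKM in SH3, at 0, 0.17 and 0 FPKM in SH1, and at 0.17, 0 and 0.07 FPKM in control, and no group was apart from another. Together the distal rows held 88.6, 13.1 and 0 estimated counts in SH3, 48.3, 125 and 149 in SH1, and 17.8, 24.8 and 7.17 in control. They made up 7.56% of the pooled GDA counts in SH3, 9.85% in SH1 and 45.7% in control, where the whole sum was 26.6 to 51 counts per library.

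Of the predicted rows, 1 was present in all 6 knockdown libraries. XM_005252317 stood at 0.75, 0.25 and 1.47 FPKM in SH3, at 0.75, 0.41 and 0.65 FPKM in SH1 and at 0, 0.11 and 0 FPKM in control. The knockdown groups overlapped with each other and not with control, with log2 fold changes of 4.26 ± 2.03 in SH3 and 3.74 ± 1.98 in SH1. XM_024447720 stood at 0, 0.84 and 0 FPKM in SH3, at 0.78, 2.52 and 1.34 FPKM in SH1 and at 0 in all 3 controls. It was at least 15.6-fold higher in SH3, by SH3 2 alone, and at least 82.0-fold higher in SH1. XM_011519223 and XM_011519217 overlapped among all 3 groups. XM_011519223 stood at 0, 0.71 and 0 FPKM in SH3, at 1.07, 0 and 0.66 FPKM in SH1 and at 0.14, 0 and 0 FPKM in control. XM_011519217 stood at 0.22, 0 and 0 FPKM in SH3, at 0.03, 0 and 0.22 FPKM in SH1 and at 0.24, 0 and 0 FPKM in control. The highest of its 9 levels was that of control 1.

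Over the 9 rows, 4 were higher in SH3 than in control with no overlap between the groups, where 6.15% of all listed transcripts were. In SH1 against control, 5 rows were higher with no overlap, where 8.36% of all listed transcripts were. In SH3 against SH1, 3 rows were lower with no overlap, beside 6.79% of all listed transcripts. These counts describe rows of 1 gene that share reads, and the gene was chosen for this pattern. The number of rows with an estimated count above 0 was 6, 8 and 4 of 9 in SH3 libraries, 8, 6 and 8 in SH1 libraries, and 3, 2 and 2 in controls. In SH3 2 this includes NM_001242507, with an estimated count of 0.07 and 0 FPKM. No row was above 0 in all 3 controls.

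**Figure D3:**
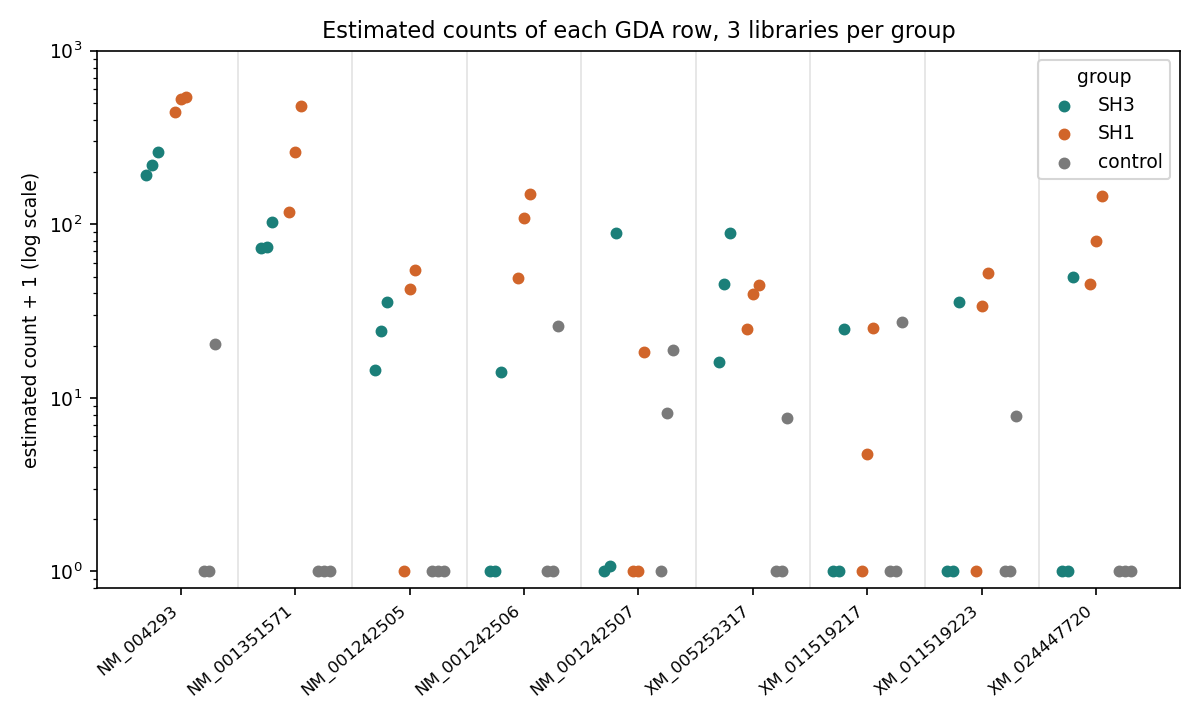
Estimated count plus 1 of each GDA row on a log axis, 1 point per library, with SH3 at left, SH1 in the middle and control at right within each row. Points at the bottom are counts of 0. For NM_004293 and NM_001351571 the 6 knockdown libraries sit between 71.9 and 538 counts, while the controls have 0 in all but control 3 of NM_004293, at 19.4.

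GDA was then set beside the other genes of purine metabolism. Of a list of 67 genes (degradation, salvage, synthesis, the adenylate and guanylate branches, and transport), 34 were in the table and 33 were tested, each by its listed transcript of the highest mean FPKM. By the edgeR quasi-likelihood test with p-values adjusted over all transcripts by Benjamini-Hochberg, 0 of the 33 passed a threshold of 0.05 in SH3 against control, where 0.0472% of all genes tested this way did. The count was also 0 in SH1 against control (0.299% of all genes) and in SH3 against SH1 (0.189%). At an unadjusted p under 0.05 there was 1 in SH3 against control (4.91% of all genes), 3 in SH1 against control (7.27%) and 3 in SH3 against SH1 (5.90%). The DESeq2 Wald test called 1 of the 33 in SH3 against control (2.43% of its transcripts), 2 in SH1 against control (2.97%) and 2 in SH3 against SH1 (2.61%). The median log2 fold change of the list was -0.30 in SH3 against control (0.08 over all genes), -0.34 in SH1 against control (0.03) and 0.40 in SH3 against SH1 (0.05). HPRT1, APRT, PNP, ADA, XDH, NT5E and IMPDH2, which belong to purine salvage, degradation and the guanylate branch, were not analysed here.

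**Figure D4:**
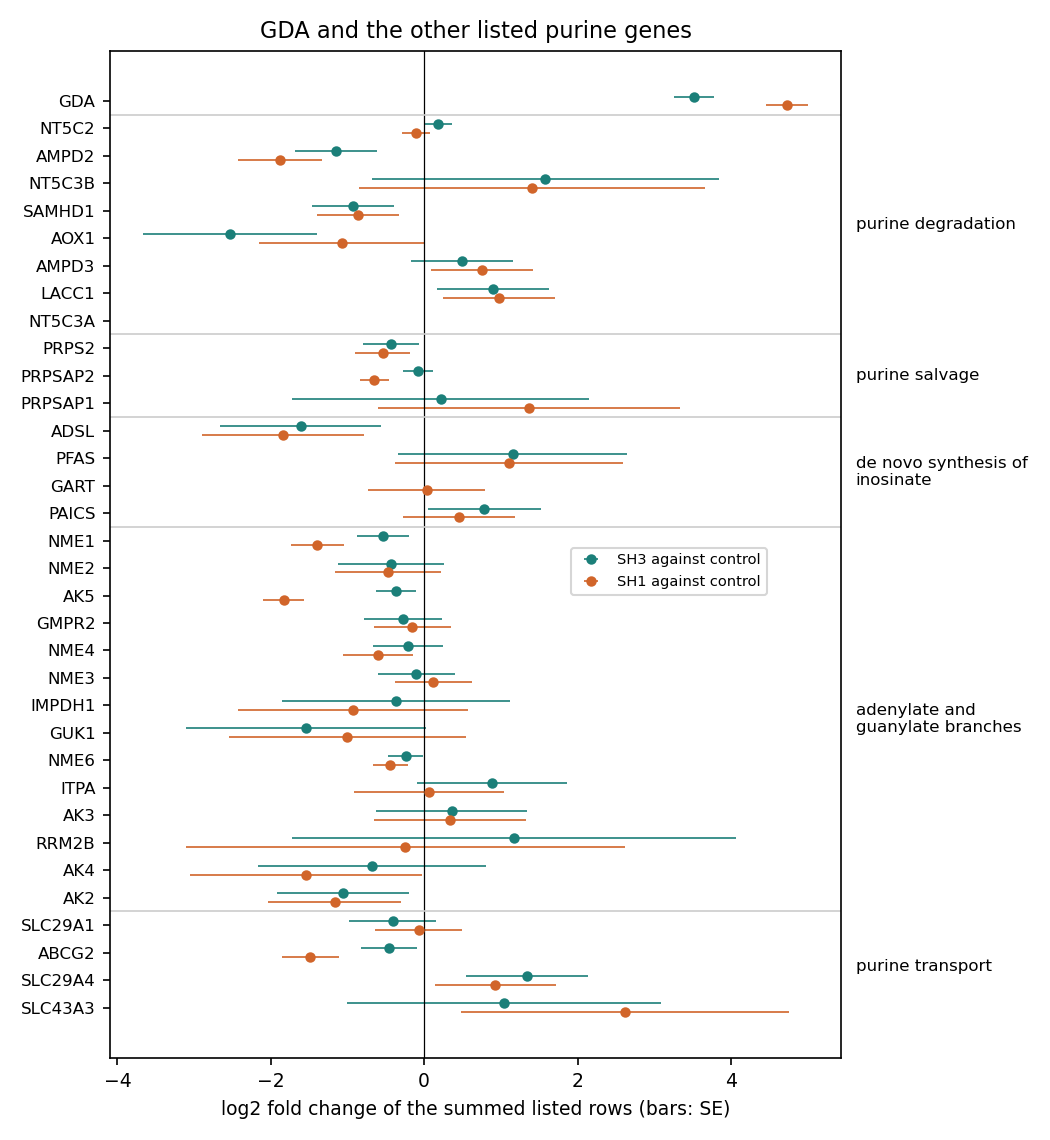
Log2 fold change of summed listed rows (points, with SE as bars) for GDA and the listed purine genes by role, in SH3 (upper point) and SH1 (lower point) against control. GDA lies at 3.52 in SH3 and 4.73 in SH1, with no other plotted gene above 2.62. Genes with a group at 0 (NT5C3A in both comparisons, GART in SH3) have no point. Against a floor of 3 counts over the group at 0, NT5C3A was at least 25.2-fold higher in SH1 and 3.42-fold higher in SH3. Its sum was 1.72, 1.05 and 0 FPKM in SH1 and 0, 0.35 and 0 FPKM in SH3. GART, by its 2 listed rows, was at least 62.9-fold lower in SH3.

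Among degradation genes, NT5C2, a cytosolic nucleotidase that hydrolyses inosinate and guanylate, showed levels close together. Its 14 listed rows summed to 15.5 ± 1.52 FPKM in SH3, 13.5 ± 1.05 FPKM in SH1 and 12.9 ± 2.12 FPKM in control (SD, n = 3 each), with log2 fold changes of 0.18 ± 0.18 in SH3 and -0.11 ± 0.18 in SH1. AMPD2, an adenylate deaminase, summed to 2.59 ± 2.09 FPKM in SH3, 1.52 ± 0.280 FPKM in SH1 and 5.53 ± 2.57 FPKM in control. Its log2 fold change was -1.15 ± 0.53 in SH3 and -1.88 ± 0.55 in SH1, and neither passed (edgeR quasi-likelihood test on sums, adjusted p = 0.622 in SH3 and 0.191 in SH1). AOX1, an aldehyde oxidase related to xanthine oxidoreductase, summed to 0.28 ± 0.13 FPKM in SH3, 0.823 ± 1.03 FPKM in SH1 and 1.49 ± 1.14 FPKM in control, with adjusted p = 0.612 in SH3 and 0.911 in SH1 by the same test. NT5C3B, a nucleotidase of methylated guanylate, summed to 1.82 ± 0.702 FPKM in SH3, 1.74 ± 2.42 FPKM in SH1 and 0.537 ± 0.930 FPKM in control.

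On sums over listed rows, 2 genes that make or reuse purines passed by edgeR. Where 2.14% of 6398 sums passed in SH1 against control, AK5, an adenylate kinase, fell in SH1, at 1.57 ± 0.376 FPKM against 5.02 ± 0.937 FPKM in control (log2 fold change -1.83 ± 0.27, adjusted p = 0.0133, edgeR quasi-likelihood test). In SH3 it stood at 4.11 ± 0.119 FPKM, and in SH3 against control, where 0.406% of sums passed, 0 of the 33 purine genes did. In SH3 against SH1 (1.36% of sums), AK5 was higher in SH3 by 1.46 ± 0.27 on the log2 scale (adjusted p = 0.0454) and GART, a trifunctional enzyme of inosinate synthesis, was lower, with 0 counts in all 3 SH3 libraries. The sum of the 2 listed GART rows was 0.46, 0.92 and 1.49 FPKM in SH1 and 1.00, 0.53 and 1.04 FPKM in control. SH3 was at least 63.9-fold lower than SH1 (adjusted p = 0.0266, edgeR quasi-likelihood test). Any GART transcript outside the table is not part of this sum, so the level of the whole gene is not known. Without SH1 1 and control 1, the adjusted p of AK5 was 0.101 in SH1 against control and 0.143 in SH3 against SH1, and that of GART was 0.0919 in SH3 against SH1 (all by the same test). At an unadjusted p under 0.05 by edgeR there was 1 purine sum in SH3 against control (8.39% of all sums), 5 in SH1 against control (11.5%) and 5 in SH3 against SH1 (10.8%). DESeq2 called 1 in SH3 against control (4.08% of its sums), 5 in SH1 against control (7.28%) and 4 in SH3 against SH1 (6.38%). Beside AK5 and GART these were AMPD2 and NME1 in SH1 against control, and ABCG2 and PRPSAP2 both there and in SH3 against SH1. Over all alternatives the adjusted p of AK5 ran from 3.74e-10 to 0.101 in SH1 against control and from 1.79e-06 to 0.157 in SH3 against SH1, and that of GART from 1.64e-07 to 0.146 (edgeR, limma or DESeq2).

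The other members named by the rule on abundance did not pass by edgeR in any of the 3 comparisons, per transcript or on sums, and NME1, PRPSAP2 and ABCG2 passed by DESeq2 on sums as given above. NME1, a nucleoside diphosphate kinase, had 13.2 ± 1.15 FPKM in SH3, 7.69 ± 1.97 FPKM in SH1 and 17.9 ± 5.63 FPKM in control (adjusted p = 0.781 in SH3 and 0.111 in SH1 against control, edgeR quasi-likelihood test on sums). NME2, its paralog, had 3.42 ± 1.07 FPKM in SH3, 3.52 ± 1.03 FPKM in SH1 and 4.42 ± 2.45 FPKM in control, and reads of the 2 genes may be confused. IMPDH1, which commits inosinate to guanylate, summed to 2.19 ± 0.822 FPKM in SH3, 1.55 ± 2.19 FPKM in SH1 and 2.73 ± 2.05 FPKM in control. PRPS2, a synthetase of the ribose phosphate donor used in salvage, had 4.81 ± 1.53 FPKM in SH3, 4.72 ± 0.721 FPKM in SH1 and 6.25 ± 2.41 FPKM in control. PRPSAP2, which associates with that synthetase, had a log2 fold change of its sum of -0.08 ± 0.19 in SH3 and -0.65 ± 0.19 in SH1 against control. The related PRPSAP1 had a log2 fold change of 0.21 ± 1.94 in SH3 and 1.37 ± 1.97 in SH1. ADSL, an enzyme of inosinate synthesis, had a log2 fold change of -1.61 ± 1.05 in SH3 and -1.84 ± 1.06 in SH1. PFAS, of the same pathway, had a log2 fold change of 1.16 ± 1.49 in SH3 and 1.11 ± 1.49 in SH1. Of the transporters, SLC29A1, an equilibrative nucleoside carrier, summed to 3.74 ± 2.97 FPKM in SH3, 5.09 ± 1.91 FPKM in SH1 and 4.73 ± 1.53 FPKM in control. ABCG2, an exporter of urate, summed to 1.16 ± 0.234 FPKM in SH3, 0.607 ± 0.0929 FPKM in SH1 and 1.50 ± 0.197 FPKM in control. SLC29A4, a related carrier, had 0.437 ± 0.280 FPKM in SH3, 0.35 ± 0.07 FPKM in SH1 and 0.157 ± 0.0577 FPKM in control.

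Relatives of the GDA protein and its possible partners were counted in the same way. Of 24 other deaminases and amidohydrolase relatives, 12 were tested and 0 passed in the 3 comparisons by edgeR, where 0.0472% to 0.299% of all genes did. At an unadjusted p under 0.05 there was 1 in SH1 against control (7.27% of all genes). There were 0 in SH3 against control (4.91%) and in SH3 against SH1 (5.90%). DESeq2 called 0, beside 2.43% to 2.97% of its transcripts. With 12 relatives, counts this low are near those shares. The most abundant was ADAR, which deaminates adenosine in double-stranded RNA, with a sum of 18.3 ± 3.56 FPKM in SH3, 21.5 ± 3.13 FPKM in SH1 and 22.8 ± 8.75 FPKM in control. ADARB1, a related RNA deaminase, summed to 4.39 ± 1.49 FPKM in SH3, 4.93 ± 1.97 FPKM in SH1 and 4.06 ± 1.25 FPKM in control. DPYSL2, a dihydropyrimidinase relative, had 3.51 ± 1.12 FPKM in SH3, 1.58 ± 2.74 FPKM in SH1 and 3.80 ± 2.85 FPKM in control. Of 7 PDZ proteins, 4 were tested by their highest transcript. By edgeR 0 passed in the 3 comparisons (0.0472% to 0.299% of all genes) and 0 had an unadjusted p under 0.05 (4.91% to 7.27%). DESeq2 called 0. On sums 0 passed by either method, and 1 had an unadjusted p under 0.05 by edgeR in SH3 against control (8.39% of all sums). With 4 genes, counts this low are near those shares. DLG4, which encodes PSD-95, summed to 2.61 ± 0.117 FPKM in SH3, 3.66 ± 0.516 FPKM in SH1 and 2.36 ± 0.843 FPKM in control. It is the least abundant of the tested members and is named, outside the rule on abundance, for its known binding to GDA. The sums of its paralogs were 5.21 ± 0.601 FPKM in SH3, 4.01 ± 0.81 FPKM in SH1 and 4.48 ± 2.09 FPKM in control for DLG1, and 3.94 ± 0.0702 FPKM in SH3, 3.84 ± 0.941 FPKM in SH1 and 2.56 ± 0.467 FPKM in control for DLG3.

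Of the 10 protein-coding genes nearest to GDA on chromosome 9, 6 were in the table and 4 were tested. By edgeR 0 passed in any of the 3 comparisons, where 0.0472% to 0.299% of all genes did. At an unadjusted p under 0.05 by edgeR there were 0, beside 4.91% to 7.27% of all genes. DESeq2 called 0, beside 2.43% to 2.97% of its transcripts. With 4 neighbours, counts of 0 are near these shares. By DESeq2, 1 of the 4 neighbours had an unadjusted p under 0.05 in SH1 against control, and the share over all transcripts was not counted. On their sums, ZFAND5, the nearest of them downstream, stood at 0.36, 1.13 and 0 FPKM in SH3, at 1.33, 1.41 and 0.42 FPKM in SH1, and at 0, 0.57 and 1.13 FPKM in control. C9orf85, upstream, stood at 1.59, 1.68 and 1.76 FPKM in SH3, at 1.56, 1.22 and 1.31 FPKM in SH1, and at 1.79, 1.44 and 1.40 FPKM in control. ANXA1, a phospholipid-binding annexin, had log2 fold changes of 0.32 ± 0.39 in SH3 and -0.22 ± 0.39 in SH1 against control. CEMIP2, a cell surface protein, had log2 fold changes of -1.10 ± 2.12 in SH3 and -1.41 ± 2.13 in SH1, an error that exceeds both values.

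The genes whose profile over the 9 libraries was most like that of NM_004293 were found by the root mean square difference between centred log2(FPKM + 0.1) values. These values were compared for 1 transcript of each of 3045 genes with a mean of at least 1 FPKM. The median difference over these genes was 2.46. The 6 lowest were ELP3 at 0.661, PTK2B at 0.689, FAM114A2 at 0.720, ETNK2 at 0.809, FHIP1B at 0.869 and TNFAIP3 at 0.876. ELP3, the catalytic subunit of Elongator (row NM_001284220), stood at 1.76, 1.88 and 3.99 FPKM in SH3, at 3.28, 3.25 and 3.65 FPKM in SH1 and at 0 in all 3 controls. PTK2B, a non-receptor tyrosine kinase (row NM_173176), stood at 1.10, 1.51 and 1.19 FPKM in SH3, at 2.43, 4.24 and 4.88 FPKM in SH1 and at 0, 0 and 0.65 FPKM in control, with reads in control 3 as for NM_004293.

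These likenesses were largely of single transcripts. All 6 genes had other listed rows, and the difference between their sums and the GDA sum was larger, at 1.33 for ELP3, 1.47 for PTK2B, 1.79 for FAM114A2, 1.53 for ETNK2, 1.86 for FHIP1B and 1.58 for TNFAIP3. The ELP3 sum, for example, was 5.42, 6.73 and 5.14 FPKM in SH3, 4.55, 4.85 and 4.53 FPKM in SH1 and 2.74, 1.09 and 1.31 FPKM in control. The genes most like the mirrored profile were CPA4 at 1.17, B3GLCT at 1.18 and SERINC2 at 1.18. CPA4, a carboxypeptidase, stood at 0.50, 1.37 and 1.56 FPKM in SH3, at 2.31, 2.15 and 1.86 FPKM in SH1 and at 15.8, 17.1 and 16.2 FPKM in control. Unlike the mirror of GDA, it was lower in SH3 than in SH1. These genes were picked for their values, so no test is given.

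**Figure D5:**
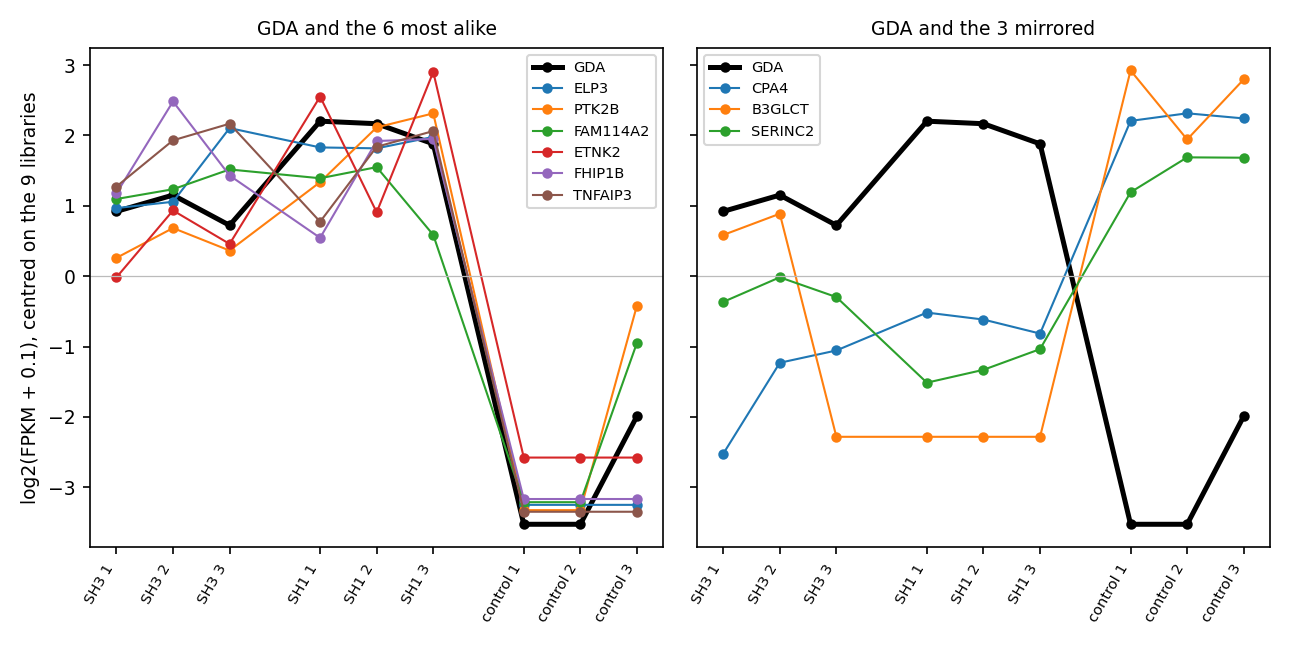
Centred log2(FPKM + 0.1) of NM_004293 of GDA (thick black) over the 9 libraries, with the 6 genes most like it (left panel) and the 3 most like its mirror (right panel), in the order SH3, SH1, control. GDA runs at 0.72 to 1.15 in SH3, 1.88 to 2.20 in SH1 and -3.53 to -1.99 in control, and B3GLCT, mirrored, lies at -2.28 in 4 knockdown libraries.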

How the data were processed

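The deposited table was read as human: per the submitters' processing notes the build is mm10, a mouse build, and no tool is named, but the rows carry human gene numbers, and the aligner and counter are not given in the sources used here. Per the file headers, the authors deposited 4 values per transcript and library. The estimated counts (expected counts, 65.1% not whole) were left without normalization by the authors. FPKM, TPM and a normalized read count were computed by the authors, the last a linear signal in which counts are rounded up and scaled by a factor of each library. Groups came from the labels, with 0 of the per-sample columns left unassigned.

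Estimated counts were rounded and fitted in 1 model of 9 libraries with edgeR 4.0.16 (R 4.3.3; TMM, default filterByExpr with a minimum count of 10, robust quasi-likelihood test). This left 17495 transcripts, and a second fit of counts summed per gene left 6398 genes. P-values were adjusted by Benjamini-Hochberg over all of them, with a threshold of 0.05. SE is the log2 fold change over the square root of F. The fitting code was tested on simulated data. A group at 0 in all 3 libraries was replaced by a floor of 3 counts over the group, and bounds and counting errors cover counting error only. Deposited FPKM gave levels and profiles (pseudocount 0.1). Alternatives were DESeq2 1.42.0, limma 3.58.1 on log2(FPKM + 1) or log2(FPKM + 0.1), other scalings and filters, other sets of libraries, and the replicate number as a block.

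Members and lists were chosen with earlier results of these data known. Named from each list were the members that passed, the 3 tested members of the highest mean FPKM and a fixed set of core purine genes. Named further were the 6 genes most like NM_004293 and the 3 most like its mirror, and, where tested, the 5 nearest genes on either side. Of the members so named, 1 is not reported here. Transcript models came from GENCODE 29. Whether the numbers 1 to 3 pair libraries was not settled. The deviations of the 9 same-numbered pairs correlated at -0.274 to 0.0325, against -0.101 to 0.189 in 18 other pairs. Of the 9 libraries, 2 correlated best with their own number. The lowest value is that of control 1 with SH1 1, between which every listed row is at least 2-fold apart, so these ranges cannot decide it. Between SH1 and SH3, same-numbered pairs correlated at 0.0151, 0.00983 and 0.0277, and the others at -0.0196 to 0.00406.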

Additional observations from a re-analysis of the deposited data

Results flagged for a closer look

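In all, 3 list genes differed between the knockdown groups by the test of SH3 against SH1 itself (edgeR quasi-likelihood test, Benjamini-Hochberg adjustment), which is why they are given here; GDA was not tested. AK5, on the sum of its rows, was higher in SH3 than in SH1 by 1.46 ± 0.27 on the log2 scale (adjusted p = 0.0454), a call that held in 6 of 20 alternatives. GART, on the sum of its 2 listed rows, was at 0 in all SH3 libraries and at least 63.9-fold lower there than in SH1 (adjusted p = 0.0266). That call held in 8 of 20, and any GART transcript outside the table is not counted. KRT19, the most abundant of the listed renal markers, stood at 60.3, 66.6 and 60.6 FPKM in SH3, at 15.4, 17.5 and 21.6 FPKM in SH1 and at 70.1, 89.5 and 82.5 FPKM in control. It was higher in SH3 than in SH1 by 1.85 ± 0.22 on the log2 scale (adjusted p = 0.0252), a call that held in 9 of 20. Tested among the gene sums, the call held in 20 of 20. KRT19 has 1 listed row, so its gene sum holds the same counts and adds no other transcript.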

How the results depend on the processing

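The direction of the GDA folds was the same in all alternatives run. For the sum, log2 fold changes ranged from 2.18 to 3.79 in SH3 against control, from 3.25 to 4.98 in SH1 against control and from -1.31 to -1.08 in SH3 against SH1, and the low ends of the first pair (2.18 and 3.25) came with log2(FPKM + 1), a pseudocount above the control levels. NM_004293 moved to 1.55 in SH3 and 2.45 in SH1 against control with that pseudocount. Leaving out 1 library gave 3.35 to 3.78 in SH3 against control, 4.56 to 4.98 in SH1 against control and -1.31 to -1.14 in SH3 against SH1 for the sum. For NM_004293 it gave 4.50 to 5.17, 5.60 to 6.27 and -1.21 to -1.01 in the same comparisons. No value is given for NM_004293 against control without control 3, since the other controls are at 0.

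The number of transcripts called depended on the setting, and the cause was not tested. In SH3 against control it was 5, and 360 with DESeq2, 17 and 15 with limma on log2(FPKM + 0.1) and log2(FPKM + 1), 3 without TMM, 0 with only the groups compared, 3 with a stricter filter, 1 without SH1 1 and control 1, and 26 on sums. In SH1 against control it was 24, and 489 with DESeq2, 81 and 39 with limma, 3 with only the groups compared, 13 without SH1 1 and control 1, and 137 on sums. In SH3 against SH1 it was 17, and 394 with DESeq2, 46 and 41 with limma, 4 with only the groups compared, 5 without SH1 1 and control 1, and 87 on sums. Leaving out 1 library gave 1 (without SH1 1) to 12 (without control 1) in SH3 against control, 10 (without SH1 2) to 20 (without control 1) in SH1 against control, and 2 (without SH1 2) to 23 (without control 1) in SH3 against SH1. Purine genes called stayed at 0 in these settings except with DESeq2 (1 in SH3 against control, 2 in SH1 against control, 2 in SH3 against SH1) and on sums (0 in SH3 against control, 1 in SH1 against control, 2 in SH3 against SH1). The count moved by more than 1.5 times without SH1 1, 2 or 3 or control 1, 2 or 3 in SH3 against control, without SH3 1, SH3 3, SH1 2, control 2 or control 3 in SH1 against control, and without any library but control 1 in SH3 against SH1.

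With the replicate number as a block, 2 transcripts were called in SH3 against control, 16 in SH1 against control and 5 in SH3 against SH1, with 0 purine genes, and the GDA sum gave 3.55, 4.75 and -1.20. NM_004293 gave 6.37, 7.49 and -1.12, the highest values against control of any alternative run. On sums the block left AK5 called in SH1 against control (adjusted p = 0.0403, edgeR quasi-likelihood test) and not in SH3 against SH1 (0.103). Control GDA sums of 26.6 to 51 counts limit any statement on which forms the controls carry.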

Other observations

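By sums over listed rows in place of single transcripts, a choice made after the values were seen, other genes lay closest to the GDA sum. Over 3902 genes, with a median difference of 2.07, the lowest were ARPC2 at 0.773, SLPI at 0.859, GSTT2 at 0.908, EREG at 0.981, TGFA at 1.01 and TSPAN4 at 1.06, each with 1 listed row. EREG and TGFA encode ligands of the epidermal growth factor receptor. EREG stood at 10.8, 9.77 and 9.03 FPKM in SH3, at 8.95, 7.76 and 5.64 FPKM in SH1 and at 1.65, 1.08 and 1.23 FPKM in control. TGFA stood at 2.41, 0.95 and 3.54 FPKM in SH3, at 3.62, 2.49 and 4.53 FPKM in SH1 and at 0, 0.58 and 0 FPKM in control. In both, the knockdown groups lay above control without overlap. Unlike in GDA, EREG was higher in SH3 than in SH1, without overlap, and TGFA overlapped between SH3 and SH1. SLPI, a secreted protease inhibitor, stood at 2.32, 1.20 and 2.19 FPKM in SH3, at 2.92, 2.43 and 5.64 FPKM in SH1 and at 0.19, 0.37 and 0.29 FPKM in control, with no overlap among the 3 groups. Closest to the mirrored GDA sum were SERINC2 at 0.855, RGS4 at 0.975 and CPA4 at 1.04. RGS4, a regulator of G protein signalling, stood at 2.61, 2.46 and 2.38 FPKM in SH3, at 1.13, 1.24 and 0.73 FPKM in SH1 and at 8.38, 6.26 and 8.25 FPKM in control, again with 3 groups that did not overlap. These genes were picked for their values, so no test is given.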
